A study of Homo sapiens with 4 samples.

Results

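The stomach and foregut genes examined here are 8 protein-coding genes chosen by symbol: CLDN18, GIF (now called CBLIF), MUC5AC, MUC6, TFF1, TFF2, TFF3 and BARX1. They were found by Ensembl identifier among the 60234 genes of the count table, and all 8 were present. RNA was sequenced from NKX2.5:GFP cells, a human embryonic stem cell (hESC) line with GFP in 1 allele of the NKX2-5 locus, where it marks cells of the cardiac lineage. The cells were differentiated toward heart as spin embryoid bodies, received either 1 µM retinoic acid (RA) or the solvent DMSO (CTR) from day 4 to day 7, and were sorted for GFP at day 31 according to the series description. The 4 libraries were thus RA GFP-positive, RA GFP-negative, CTR GFP-positive and CTR GFP-negative, all from the same reporter line, with 1 library each. With single libraries, differences are described by size and counting error, and no p-value is given. The RA and CTR cells also came from separate treatments of culture, so that an effect of RA and a difference between cultures cannot be told apart.

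These genes mark several roles of the stomach. Surface mucous cells of the gastric lining secrete MUC5AC together with the trefoil peptide TFF1, and deeper mucous cells secrete MUC6 together with TFF2, so that mucin and trefoil peptide form the protective gel. TFF3 is the trefoil peptide of intestinal goblet cells and of airways. CLDN18 is a tight junction claudin of stomach and lung, GIF is the intrinsic factor that binds vitamin B12, and BARX1 is a homeobox factor of the stomach mesenchyme. In the study, CLDN18, GIF, MUC5AC, MUC6 and BARX1 belong to the genes by which its classifier recognizes fetal stomach.

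The libraries differed in depth. The counts summed to between 26222787 and 28643091 reads in 3 libraries and to 4371101 reads in CTR GFP-negative cells. Levels are given as CPM, the reads of a gene per 1000000 reads of a library after TMM scaling (trimmed mean of M-values, which balances libraries of different makeup), with an exact Poisson 95% interval that covers counting error only. A gene without reads can hide up to 3 reads, or 0.639 CPM for CTR GFP-negative cells and between 0.105 and 0.117 CPM for the others. The sort was seen in NKX2-5 itself, at 463 CPM and 593 CPM in the RA and CTR GFP-positive libraries and at 9.74 CPM and 14.5 CPM in the GFP-negative ones. In sorted bulk RNA, fewer cells of a type and less RNA per cell cannot be told apart.

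The 8 genes were concentrated in the RA GFP-negative library. Their reads summed to 1645 there (64.1 CPM) and to 6 in its CTR counterpart (1.28 CPM). In GFP-positive cells the sums were 120 with RA (4.49 CPM) and 92 in CTR (3.21 CPM). With the study's detection limit of 4 reads, 8 of the 8 genes were detected in GFP-negative cells with RA and 1, CLDN18, without, while 7 and 4 were detected in the GFP-positive libraries. In the shallow CTR GFP-negative library 7 of the 8 genes had no reads, which must be read against its depth.

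**Figure D1:**
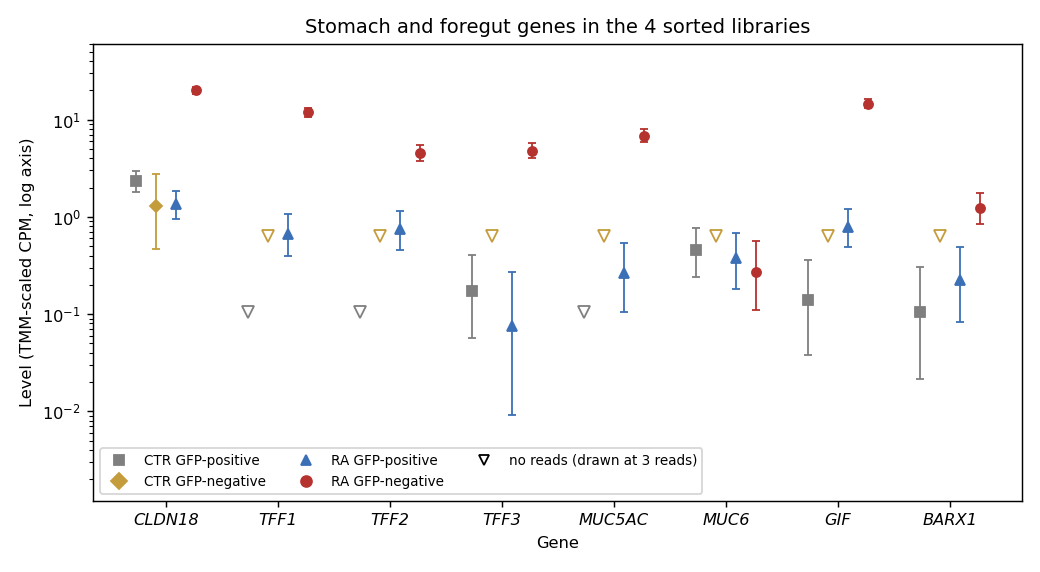
Level of each gene in the 4 sorted libraries, in TMM-scaled CPM on a log axis; points are single libraries, bars are exact Poisson 95% intervals, and open triangles mark genes without reads, drawn at the level of 3 reads. RA GFP-negative cells hold the highest point of every gene except MUC6, for which the intervals of the 3 libraries with reads overlap.

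CLDN18 (ENSG00000066405; chromosome 3 of GRCh37, 137717577 to 137752497, plus strand) was the member with the most reads. It had 512 reads in GFP-negative cells with RA and 6 without, or 19.95 CPM (18.3 to 21.8) and 1.28 CPM (0.469 to 2.78). In GFP-positive cells it had 36 and 67 reads, or 1.35 CPM (0.943 to 1.86) and 2.34 CPM (1.81 to 2.97). Of the 8 genes it was the one that reached the detection limit in all 4 libraries. In GFP-negative cells the RA level was 15.6-fold that of CTR (Clopper-Pearson 95% interval 7.13 to 42.7), a difference of 3.20 in log2(CPM + 1). In GFP-positive cells the order was the opposite, with an RA level 0.576-fold that of CTR (0.373 to 0.876) and a log2 difference of -0.51. Between the CTR fractions the ratio of GFP-negative to GFP-positive cells was 0.546, with an interval from 0.194 to 1.25 that includes equal levels. The gene has a start used in lung and another used in stomach, and counts per gene do not separate them.

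GIF (ENSG00000134812; chromosome 11, 59596746 to 59612972, minus strand) encodes the protein that parietal cells of the human stomach secrete to carry vitamin B12 to the ileum. It had 375 reads in GFP-negative cells with RA and 0 without, and 21 and 4 reads in GFP-positive cells. This was 14.6 CPM (13.2 to 16.2), 0.785 CPM (0.486 to 1.20) and 0.140 CPM (0.0380 to 0.357) in the 3 libraries with reads. At the depth of the CTR GFP-negative library the level of RA GFP-negative cells would correspond to 68.6 reads, where none was found. The RA level in GFP-negative cells was at least 22.9-fold higher than the CTR level against the floor of 3 reads. In GFP-positive cells RA was 5.63-fold higher (1.90 to 22.5), on 21 reads against 4.

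The sequences in front of the known starts are shown for these genes because they are the pair of members for which RefSeq promoters were at hand, and both stood higher in RA GFP-negative cells. MUC5AC, MUC6, TFF1, TFF2, TFF3 and BARX1 had no entry. Each run holds the 250 bases before a start, from 5′ to 3′ on the strand of the gene, in the RefSeq build GRCh38.p14, which is not the build of the counts. Capitals mark matches on either strand to AGGTCA, the core letters bound by nuclear receptors, to the GATA motifs AGATAA and TGATAA, to the FOXA motifs TGTTTAC and TATTTAC, and to the TATA box letters TATAAA.
CLDN18, upstream start, chr3:137998566-137998815, plus strand: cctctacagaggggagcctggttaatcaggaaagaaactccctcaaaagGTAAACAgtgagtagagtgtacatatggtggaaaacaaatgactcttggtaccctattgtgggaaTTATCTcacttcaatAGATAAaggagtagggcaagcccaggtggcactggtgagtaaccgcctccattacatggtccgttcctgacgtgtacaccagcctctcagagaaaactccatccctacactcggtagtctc
CLDN18, downstream start, chr3:138009915-138010164, plus strand: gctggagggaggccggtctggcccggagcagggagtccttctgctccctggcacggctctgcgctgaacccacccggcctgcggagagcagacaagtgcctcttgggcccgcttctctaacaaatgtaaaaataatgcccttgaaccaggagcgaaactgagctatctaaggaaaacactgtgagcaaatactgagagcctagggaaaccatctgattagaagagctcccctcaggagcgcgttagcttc
GIF, chr11:59845500-59845749, minus strand: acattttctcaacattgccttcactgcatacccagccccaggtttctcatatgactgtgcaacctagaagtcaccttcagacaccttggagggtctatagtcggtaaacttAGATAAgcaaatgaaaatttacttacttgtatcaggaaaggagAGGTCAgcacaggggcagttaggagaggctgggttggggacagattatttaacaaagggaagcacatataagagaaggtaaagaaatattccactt
Before the upstream CLDN18 start there were 2 GATA matches, whose first bases lie 136 and 121 bases before the start, and 1 FOXA match at 201 bases. Before the downstream start none of these letters was found. The promoter sequences carry no tissue label, so the matches cannot be assigned here to the stomach start or the lung start of CLDN18. The GIF promoter held 1 GATA match at 139 bases and 1 AGGTCA match at 96 bases. Among the 35116 promoters of the table, cut in the same way, 14.6% held a GATA match, 5.27% a FOXA match, 12.1% AGGTCA and 10.7% TATAAA. The searched motifs do not overlap each other in these windows. The GIF promoter had 42.4% G and C letters and 1 CG pair, against medians of 58% and 11 over the table, the upstream CLDN18 start had 47.6% and 4, and the downstream start had 56.4% and 10. A match is a string of letters only, and whether any of these places was bound was not measured.

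The trefoil peptides TFF1, TFF2 and TFF3 are small secreted proteins that stabilize mucus and help epithelium to close over injuries. Their genes lie side by side on the minus strand of chromosome 21 of GRCh37, TFF3 (ENSG00000160180) from 43731777 to 43735519, TFF2 (ENSG00000160181) from 43766466 to 43771106 and TFF1 (ENSG00000160182) from 43782391 to 43786644. TFF1 had 304 reads in RA GFP-negative cells, 18 in RA GFP-positive cells and 0 in both CTR libraries. TFF2 had 116 and 20 reads in the RA libraries and likewise none in the CTR libraries. TFF3 had 123 reads in GFP-negative cells with RA and 0 without, and 2 and 5 reads in GFP-positive cells. The family thus shared its highest library. In GFP-positive cells TFF1 and TFF2 had more reads with RA, and TFF3 had fewer, on 2 reads against 5.

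In GFP-negative cells the RA levels were 11.8 CPM for TFF1 (10.6 to 13.3), 4.52 CPM for TFF2 (3.74 to 5.42) and 4.79 CPM for TFF3 (3.98 to 5.72). Against the floor of the CTR library they were at least 18.5-fold, 7.08-fold and 7.503-fold higher. At the depth of that library 55.6, 21.2 and 22.5 reads would have corresponded to these levels. In GFP-positive cells TFF1 was at 0.673 CPM with RA (0.399 to 1.06) and TFF2 at 0.748 CPM (0.457 to 1.15). The deep CTR GFP-positive library had no reads of either, and the intervals of the ratios began at 4.71 and 5.29. TFF3 in the same pair was at 0.0748 CPM and 0.174 CPM, a ratio of 0.429 (0.0408 to 2.62). A difference of TFF3 between RA and CTR was thus not detectable in GFP-positive cells at this depth.

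MUC5AC and MUC6 are gel-forming mucins of the gastric surface and glands. They lie on chromosome 11 of GRCh37, MUC6 (ENSG00000184956) on the minus strand from 1012823 to 1036718 and MUC5AC (ENSG00000215182) on the plus strand from 1151580 to 1222364. MUC5AC had 176 reads in RA GFP-negative cells, 7 in RA GFP-positive cells and none in either CTR library. Its RA level in GFP-negative cells, 6.86 CPM (5.88 to 7.95), was at least 8.64-fold that of CTR by the interval of the ratio. In RA GFP-positive cells it was at 0.262 CPM (0.105 to 0.539). MUC6 behaved otherwise, with 7 reads in GFP-negative cells with RA and 0 without, and 10 and 13 reads in GFP-positive cells. Its levels in the 3 libraries with reads were below 1 CPM, at 0.273 CPM (0.110 to 0.562), 0.374 CPM (0.179 to 0.688) and 0.454 CPM (0.242 to 0.776). At the depth of CTR GFP-negative cells its RA level would correspond to 1.28 reads, so that a difference was not detectable there. The RA ratio in GFP-positive cells, 0.824, had an interval from 0.324 to 2.03. Both mucins hold long repeats, and only reads with a single best place were kept, so that their counts can be too low. The model of MUC5AC placed on GRCh37 comes from an older release and has 5930 exon bases, which limits its level per length.

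BARX1 (ENSG00000131668; chromosome 9, 96713909 to 96717637, minus strand) is made by the mesenchyme around the stomach and not by its epithelium, where it favours stomach over intestine through the Wnt antagonists SFRP1 and SFRP2. It had 32 reads in GFP-negative cells with RA and 0 without, and 6 and 3 reads in GFP-positive cells. The level in RA GFP-negative cells was 1.25 CPM (0.853 to 1.76), at least 1.95-fold above the floor of the CTR library. That library would be matched by 5.86 reads, so that the difference rests on few reads. In GFP-positive cells the ratio of RA to CTR was 2.14 (0.458 to 13.2), and a difference was not detectable.

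A gene was called different between 2 libraries when its log2(CPM + 1) differed by at least 1, that is 2-fold on this scale, among genes that reached 1 CPM in one of them. In GFP-negative cells 7 of the 8 members reached 1 CPM and MUC6 did not. The same 7 were called higher with RA and 0 lower, where 8.69% of the 18642 genes tested were called higher and 7.61% lower. This count has little weight of its own, since a gene without reads in CTR that reaches 1 CPM with RA is always called. Where the whole counting interval had to lie beyond 2-fold, 6 of the 8 were called higher (not BARX1 and MUC6) and 0 lower, against 3.79% and 5.47% of the genes tested. The median log2(CPM + 1) difference over the 8 genes was 2.75, and over all genes tested it was 0.04. With genes without reads at their floor and no pseudocount it was 3.17 over the 8 genes and -0.13 over 25190 genes.

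In GFP-positive cells 1 of the 8 members, CLDN18, reached 1 CPM, and 0 were called in either direction, where 5.09% of the 17465 genes tested were called higher and 2.12% lower. By the counting interval, which called 4.94% higher and 2.06% lower, the count of members was also 0, since the 1 CPM filter left CLDN18 alone to be called; without that filter the intervals of TFF1 and TFF2 lay beyond 2-fold. With RA, 5 of the 8 genes had more CPM than in CTR (GIF, TFF1, TFF2, MUC5AC and BARX1) and CLDN18, MUC6 and TFF3 had less. The intervals of the CPM ratio excluded equal levels for GIF, TFF1, TFF2 and MUC5AC, which were higher with RA, and for CLDN18, which was lower. The wider intervals of the log2(CPM + 1) difference, built from both single-library intervals, included 0 for MUC5AC (-0.03 to 0.62) and CLDN18 (-1.03 to 0.03). The largest log2(CPM + 1) difference was 0.81, for TFF2, so that the levels reached stayed below 1 CPM for every gene except CLDN18.

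**Figure D2:**
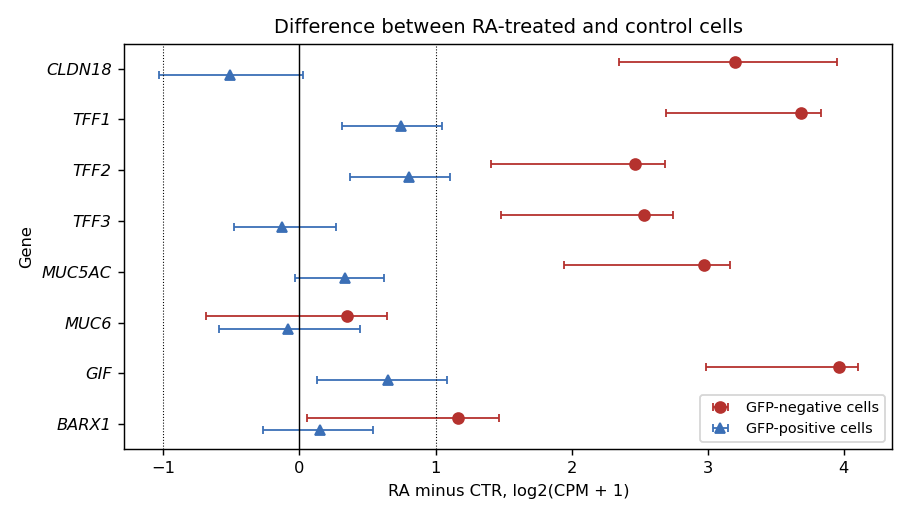
Difference between RA and CTR in log2(CPM + 1) for each gene, in GFP-negative (circles) and GFP-positive cells (triangles); bars span the differences allowed by the Poisson 95% intervals of the single libraries, and dotted lines mark 2-fold. In GFP-negative cells 7 genes lie above 1 and MUC6 lies at 0.35, whereas in GFP-positive cells all values lie between -0.51 and 0.81.

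The fractions of the RA culture differed in the same genes. Of the 7 members with at least 1 CPM in either RA library, 6 were called higher in GFP-negative than in GFP-positive cells, where 14.1% of 18111 genes were called higher and 10.2% lower. All of the 7 but CLDN18 passed the filter through the GFP-negative library alone, so that this count has little weight of its own. By the counting interval 7 were higher, BARX1 included, and 0 lower, against 13.6% and 9.34%. CLDN18 was 14.8-fold higher in GFP-negative cells (10.6 to 21.4), GIF 18.6-fold (11.998 to 30.4), TFF1 17.6-fold (11.0 to 30.1), MUC5AC 26.2-fold (12.5 to 66.1) and TFF2 6.04-fold (3.74 to 10.3). TFF3, with 123 reads against 2, had a ratio of 64.1 (17.4 to 535). BARX1 was 5.56-fold higher (2.29 to 16.3) but its log2(CPM + 1) difference of 0.88 did not reach the limit. MUC6 had a ratio of 0.730 (0.236 to 2.12).

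Between the CTR fractions 1 of the 8 genes reached 1 CPM and 0 were called, where 17.0% of 18786 genes were called higher in GFP-negative cells and 14.1% lower. By the counting interval 0 were called, against 14.8% and 7.49%. GIF, MUC6, BARX1 and TFF3 had 4, 13, 3 and 5 reads in CTR GFP-positive cells and none in the shallow CTR GFP-negative library. The upper ends of the intervals of their ratios lay between 2.002 and 14.8, so that levels higher in GFP-negative cells are not excluded for any of them.

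Expressed the other way, the level in RA GFP-positive cells was taken as a percentage of that in RA GFP-negative cells for the 6 members with at least 100 reads in the latter, which leaves out BARX1 (32 reads) and MUC6 (7 reads). This choice favours low shares, in the members as in the other lists. BARX1 was at 0.224 CPM in GFP-positive and 1.25 CPM in GFP-negative cells, and MUC6 at 0.374 CPM and 0.273 CPM. The share was 6.75% for CLDN18 (4.67 to 9.47), 5.37% for GIF (3.29 to 8.33), 5.68% for TFF1 (3.32 to 9.13) and 3.82% for MUC5AC (1.51 to 8.03). TFF3 lay at 1.56% (0.187 to 5.76) and TFF2 at 16.5% (9.75 to 26.7). Among these 6 genes TFF2 had the highest share, with an interval above those of the other 5. Liver genes with at least 100 reads in RA GFP-negative cells had a median share of 5.28% over 7 genes (3.53 to 13.8 across genes), AFP among them with 4.86% (4.47 to 5.28), and intestinal genes had a median of 3.88% over 8 genes. The median was 5.53% for the 6 members, 5.35% for further gastric epithelium (2 genes) and 7.86% for gut endoderm factors (2.15 to 315 across genes). Higher medians were found for stratified epithelium (14.3%), pancreas (16.2%), vitamin B12 transport (19.1%) and general epithelium (21.7%). The highest were those of other mucins (24.6%), gut mesenchyme (45.8%) and, apart from cardiomyocyte genes, lung and airway (72.7%, 2 genes). Cardiomyocyte genes ran the opposite way, since the level in GFP-positive cells was between 1695% and 6203% of that in GFP-negative cells. GFP-negative cells that remained in the sorted GFP-positive cells, or low expression in GFP-positive cells, would both appear in these shares, and their part in the result was not tested.

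**Figure D3:**
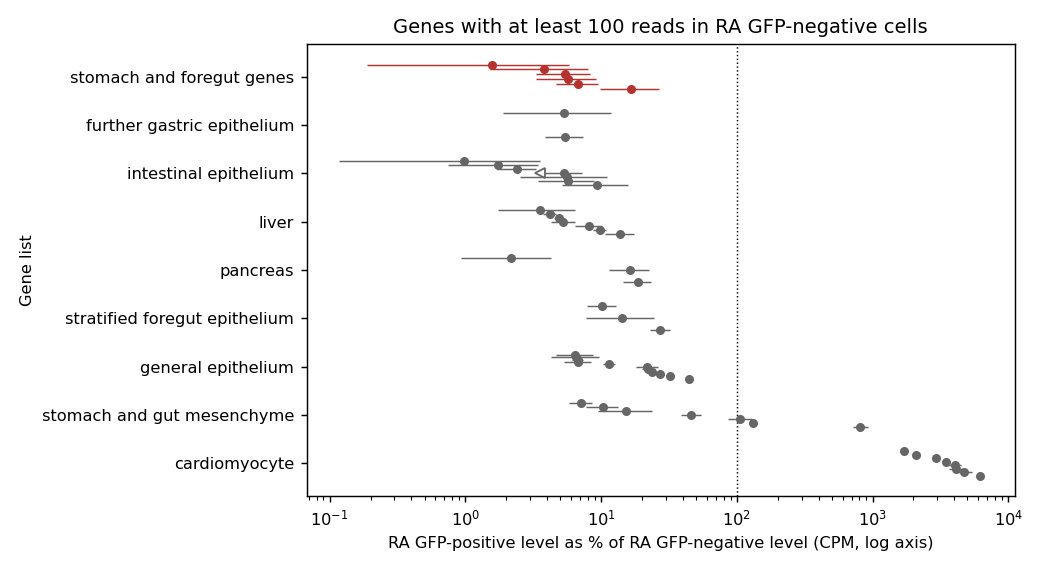
Level in RA GFP-positive cells as a percentage of that in RA GFP-negative cells, on a log axis, for genes with at least 100 reads in the latter; points are genes, bars are Clopper-Pearson 95% intervals, the open marker is the upper limit of a gene without reads in GFP-positive cells, and the dotted line marks equal levels. The 6 stomach genes lie between 1.56% and 16.5%, 5 of them within the range of the liver genes (3.53% to 13.8%) or below it and TFF2 above it, and cardiomyocyte genes lie between 1695% and 6203%.

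Levels between genes can be compared only per length, here as CPM per kilobase of annotated exon in RA GFP-negative cells. TFF1 was highest, at 24.1 (21.4 to 26.9). It was followed by TFF2 at 6.47 (5.34 to 7.76), GIF at 6.08 (5.48 to 6.73), CLDN18 at 5.37 (4.92 to 5.86) and TFF3 at 5.20 (4.32 to 6.20), whose intervals overlap so that their order is not resolved. MUC5AC at 1.16 (0.992 to 1.34), BARX1 at 0.711 (0.486 to 1.00) and MUC6 at 0.0323 (0.0130 to 0.0666) came last. Of the mucin and trefoil pairs of the stomach, the surface pair MUC5AC and TFF1 was present in RA GFP-negative cells at 176 and 304 reads, whereas of the gland pair TFF2 had 116 reads and MUC6 had 7.

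The chromosomal neighbours of the paired genes did not share their pattern as a block. Beside the TFF genes, TMPRSS3, a membrane serine protease, had 45 reads in GFP-negative cells with RA and 1 without, and 2 and 0 reads in GFP-positive cells, a log2(CPM + 1) difference of 1.18 between the GFP-negative libraries. On the other side ABCG1, a cholesterol exporter, was lower with RA by that measure, at -0.94, and ZBTB21 was at 0.36. UMODL1 and UBASH3A had at most 3 reads in any library, and RSPH1 had 19 reads in RA GFP-negative cells and 2 in CTR. Within the mucin cluster MUC2, the main mucin of intestinal goblet cells, lies between MUC6 and MUC5AC and had 23 reads in RA GFP-negative cells, or 0.896 CPM. MUC5B, the next mucin, had 70 reads there and 2 in CTR, and 35 and 85 reads in GFP-positive cells. With RA it was thus higher in GFP-negative cells, by 1.39 in log2(CPM + 1), and lower in GFP-positive cells, at -0.78. The genes outside the cluster, among them AP2A2, CHID1 and TOLLIP, differed by between 0.29 and 0.32 in GFP-negative cells, TSPAN4 by -0.31 and BRSK2 by -1.02.

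**Figure D4:**
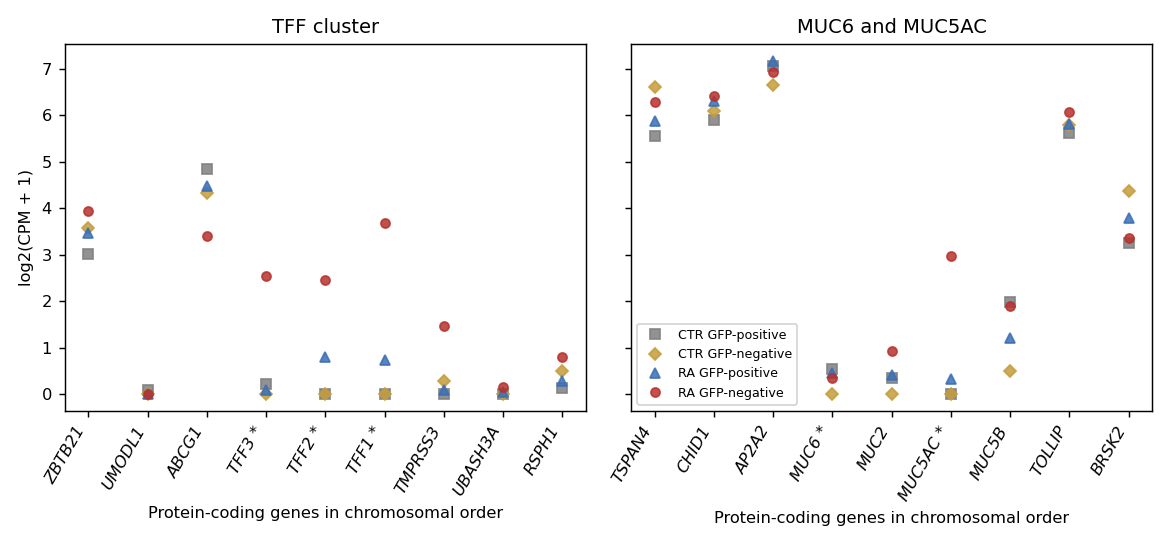
Levels as log2(CPM + 1) of the protein-coding genes at the TFF cluster (left) and around MUC6 and MUC5AC (right), in chromosomal order at equal spacing; markers are the 4 libraries and asterisks mark members. TFF3, TFF2, TFF1 and MUC5AC stand highest in RA GFP-negative cells, while MUC6 stays below 1 in every library.

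Further genes of gastric epithelium were taken from a list of 16, all matched. In GFP-negative cells 6 of them reached 1 CPM and the same 6 were called higher with RA (ATP4B, PGC, CTSE, VSIG1, ANXA10 and PSCA), with 0 lower, beside 8.69% of all genes tested. All but CTSE had 0 reads in CTR, so that reaching 1 CPM with RA fixed their call. The median log2(CPM + 1) difference over the 16 genes was 0.37, and with genes without reads at their floor 0.96 over 9 genes. CTSE, an aspartic protease of gastric surface cells, had 745 reads with RA and 12 in CTR, a ratio of 11.4 (6.46 to 22.1). PGC, which encodes a pepsinogen, had 109 reads and 0, at least 5.32-fold higher by the interval of the ratio. VSIG1, a junctional protein of gastric epithelium, had 85 and 0, at least 4.13-fold higher. ATP4B, the small subunit of the acid pump, had 31 reads and 0, at least 1.45-fold higher, whereas ATP4A, its catalytic subunit, had 8 and 3 reads, a ratio of 0.488 (0.117 to 2.86). GKN1, a secreted protein of surface cells, had 0 reads in both GFP-negative libraries and 8 and 5 reads in the RA and CTR GFP-positive ones. GKN2, GAST and the pepsinogen genes PGA3, PGA4 and PGA5 had no reads in any library. The last 3 genes are nearly identical, and reads placed on several of them were left out by the authors, so that their level is uncertain. The genes of mature gastric cells were therefore unevenly covered: GIF had 375 reads in RA GFP-negative cells and ATP4A, of the same parietal cells, had 8. In GFP-positive cells 2 of the 16 genes were called higher with RA, CTSE (42 reads and 2) and CAPN8 (52 and 11), and 0 lower, beside 5.09% and 2.12% of all genes. These 2 were the genes of the list that reached 1 CPM there.

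Markers of intestine, liver and pancreas were mostly called higher with RA in GFP-negative cells as well, while those of lung and cardiomyocytes were mostly not. The part of such other cell types in the result was not tested. In GFP-negative cells 11 of 16 intestinal genes were called higher with RA and 0 lower, beside 8.69% and 7.61% of all genes tested, at a median log2(CPM + 1) difference of 1.92 and a summed level of 155 CPM against 5.75 CPM. Of the 11, MEP1A, MUC13, FABP1, SI and OLFM4 had 0 reads in CTR, so that their call was fixed in the same way. CDX2, which specifies intestine, was at 17.3 CPM and 1.49 CPM, VIL1 at 30.8 CPM and 1.28 CPM and CDH17 at 60.3 CPM and 0.426 CPM. Of 7 liver genes 6 were higher and 1, TTR, lower, at 11.7 CPM with RA against 73.0 CPM in CTR. Their summed levels were 1030 CPM and 90.3 CPM, with most of the CTR sum from TTR, and AFP was at 465 CPM and 2.98 CPM. Of 8 cardiomyocyte genes 0 were higher and 3 lower (MYH7, ACTN2 and TTN), and their summed level was 436.5 CPM with RA against 878 CPM in CTR. Of 9 pancreatic genes 5 were higher and 0 lower, PDX1 with 357 reads and 1, while PTF1A and PRSS1 had 0 reads in CTR. TFF3, CLDN18 and MUC5AC are also made in intestine or airway. Of the lung genes, NKX2-1 had 9 reads in RA GFP-negative cells, 1 in RA GFP-positive cells and 0 in both CTR libraries, and SFTPC at most 2 and SCGB1A1 at most 1 in any library, whereas SFTPD had 1001 reads (39.0 CPM) in RA GFP-negative cells and 335 in CTR (71.3 CPM). Of the 12 lung and airway genes 1, MUC5B, was called higher and 0 lower, and their summed level was lower with RA, at 88.1 CPM against 138 CPM, most of it from SFTPD and ABCA3.

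**Figure D5:**
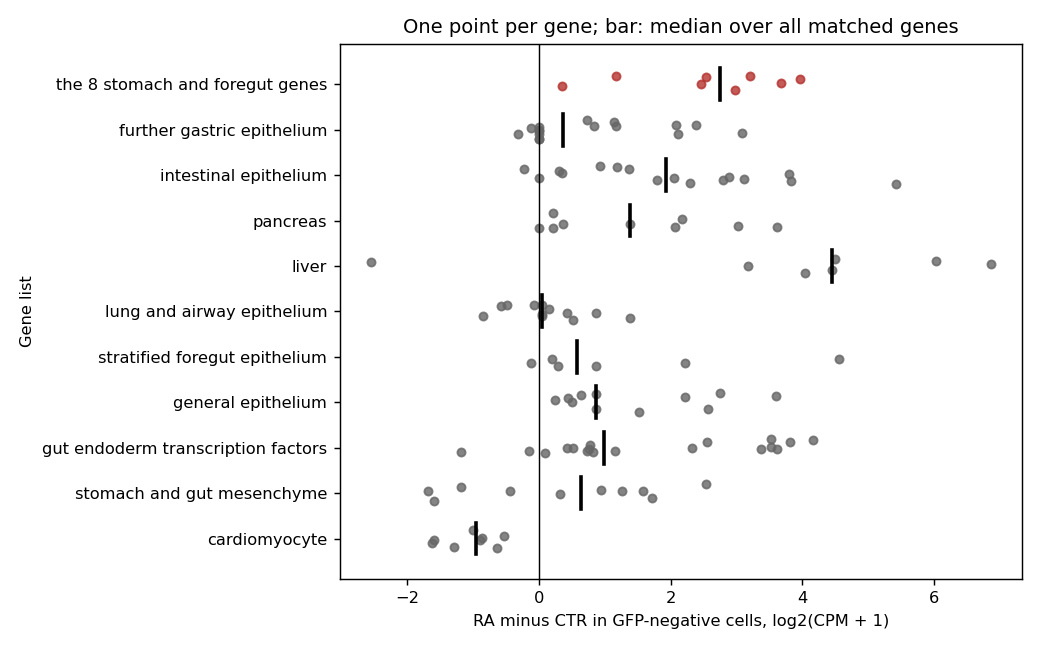
Difference between RA and CTR in GFP-negative cells, in log2(CPM + 1), for the 8 genes (top row) and the genes of 10 lists of other markers; points are genes and bars are medians over all matched genes of a list. The 8 genes have a median of 2.75, liver genes 4.44, intestinal genes 1.92, lung and airway genes 0.06 and cardiomyocyte genes -0.95.

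General epithelial genes were present in both GFP-negative libraries. Of 11 such genes 5 were called higher with RA and 0 lower, beside 8.69% and 7.61% of all genes tested, at a median log2(CPM + 1) difference of 0.87; EPCAM stood at 127 CPM against 18.1 CPM, a ratio of 7.03 (5.67 to 8.83), and CLDN4 at 255 CPM and 20.2 CPM. CDH1, the epithelial cadherin, was at 146 CPM and 122 CPM, a ratio of 1.19 (1.09 to 1.30). The summed level of the 11 genes was 2825 CPM with RA and 1652 CPM in CTR. The part of this difference in the levels of the stomach genes was not tested. Of 6 genes of stratified epithelium, which also lines the oesophagus, 2 were called higher, beside 8.69% of all genes: KRT4 (710 reads and 1) and KRT15 (94 and 0, a call fixed by reaching 1 CPM), and KRT5 was at 26.6 CPM and 23.0 CPM.

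Of 18 transcription factors of gut endoderm, 9 were called higher with RA in GFP-negative cells and 1 lower, beside 8.69% and 7.61% of all genes tested, at a median log2(CPM + 1) difference of 0.99. FOXA2 and ONECUT1 had 0 reads in CTR, so that their call was fixed by reaching 1 CPM. FOXA1 and FOXA2, which open chromatin in early endoderm, had 491 and 240 reads with RA and 2 and 0 in CTR, and HNF4A had 458 and 3. SOX2, which marks foregut against hindgut but also neural cells, was the factor called lower, with 14.3 CPM against 33.6 CPM, a ratio of 0.424 (0.351 to 0.514). PDX1, which also stands in the list of pancreatic genes, was at 13.9 CPM in RA GFP-negative cells, beside the intestinal factor CDX2 at 17.3 CPM. GATA4, which acts in heart and stomach alike, was at 191 CPM and 213 CPM in GFP-negative cells and at 603 CPM and 530 CPM in GFP-positive cells.

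Mesenchymal genes of stomach and gut, the company of BARX1, differed in both directions in GFP-negative cells. Of 10 listed, 4 were called higher with RA in GFP-negative cells and 3 lower, beside 8.69% and 7.61% of all genes, and the call of NKX3-2, without reads in CTR, was fixed by reaching 1 CPM. In GFP-positive cells 5 were higher and 0 lower, beside 5.09% and 2.12%. SFRP1 stood at 648 CPM against 216 CPM, a ratio of 3.00 (2.81 to 3.20), and SFRP2 at 61.7 CPM and 199 CPM, a ratio of 0.310 (0.285 to 0.336), so that the Wnt antagonists placed downstream of BARX1 differed in opposite directions. FOXF1, a factor of gut mesenchyme, had 186 reads and 2 in GFP-negative cells (ratio 17.0, interval 4.65 to 142) and 206 reads and 6 in GFP-positive cells (36.8, interval 16.6 to 101). NKX3-2, which patterns the distal stomach, had 36 reads and 0 in GFP-negative cells and 68 and 18 in GFP-positive cells. Between the RA fractions 5 of the 10 genes were called higher in GFP-negative cells, SFRP2 and HLX among them, and 2 lower, beside 14.1% and 10.2% of all genes tested. FOXF1 was at 7.70 CPM in GFP-positive and 7.25 CPM in GFP-negative cells, and NKX3-2 at 2.54 CPM and 1.40 CPM.

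The partners of GIF in vitamin B12 transport were likewise mixed. TCN1, the related B12 binder of saliva and gastric juice, had 266 reads with RA and 5 in CTR GFP-negative cells, a ratio of 9.74 (4.12 to 30.2). AMN, which anchors the ileal receptor for intrinsic factor, was at 34.4 CPM and 5.32 CPM, whereas LRP2, a large endocytic receptor, was lower with RA, at 150 CPM and 377 CPM. Of the 6 genes 2 were called higher and 1 lower, at a median log2(CPM + 1) difference of 0.15, beside 8.69% and 7.61% of all genes tested. Among 12 other mucins 6 were called higher and 0 lower, at a median of 1.09 and beside the same shares, where MUC12 and MUC13 had 0 reads in CTR and a call fixed by reaching 1 CPM, with MUC13, a membrane mucin of gut, at 197 reads and 0, MUC1 at 521 and 17 and MUC16 at 455 and 15.

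The genes closest in pattern to the members at 10 CPM or more were sought by the distance between the 4 log2(CPM + 1) values, among 19234 named genes with at least 1 CPM in some library. For GIF these were MEP1A, an intestinal brush border protease (distance 0.20), POU5F1 (0.23) and TM4SF4 (0.30). For TFF1 they were MEP1A (0.16), HOXA2 (0.20) and TM4SF4 (0.29), and for CLDN18 CEBPA (0.60), FOXQ1 (0.79) and ALB (0.79). MEP1A had 338 reads in GFP-negative cells with RA and 0 without, and 20 and 1 reads in GFP-positive cells. With 4 libraries, of which 1 holds nearly all the reads, many genes share such a pattern, and the distances are a description of these libraries.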

How the data were processed

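The members and the other gene lists were chosen with earlier results of these data known. The deposited values are read counts per Ensembl gene without normalization, 1 column per library. According to the supplemental procedures and the labels, paired reads of 75 bp were trimmed (SICKLE) and placed on hg19, in a version the authors had adapted, with GSNAP. Uniquely placed reads were kept, handled with SAMtools 0.1.18 and counted by HTSeq 0.6.1p1 without regard to strand. The Ensembl release is not given in the sources used here. No exon base of a member overlapped an exon of another gene in the annotation used (GENCODE v44 lifted to GRCh37), from which coordinates and exon lengths were taken; 92.2% of the genes had a name.

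CPM were formed with the TMM factors (0.951 to 1.07) of edgeR 4.0.16 in R 4.3.3. With 1 library per condition no p-value was computed. Ratios carry Clopper-Pearson and CPM Poisson 95% intervals from scipy 1.17.1. Amplified reads are not independent molecules, so that both the intervals and the 3-read floor hold counting error alone. Differences of log2(CPM + 1) understate the change of low genes. The genes named were the 8 members, the 3 highest in RA GFP-negative cells and the 2 most different per list, a set of markers always named, the 3 neighbours on each side of the paired genes and the 3 nearest patterns. ACTN2, ANXA10, CAPN8, CUBN, FABP1, OLFM4, PSCA, SI, GKN2, GAST, MUC12, ONECUT1, PRSS1, PTF1A, PGA3 to PGA5, SFTPC, SCGB1A1 and TTR were added after their values were seen. Alternatives were 5 scalings (among them DESeq2 1.42.0 size factors), pseudocounts of 0.25 and 5 CPM, 3 filters and another call rule. Simulated data were also used to check the steps. The outcome of that check is not given here, so it carries no weight for calls at the low levels of the members.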

Additional observations from a re-analysis of the deposited data

Results flagged for a closer look

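CLDN18 differed between RA and CTR in opposite directions in the sorted fractions, and the counting intervals of both CPM ratios excluded equal levels. The log2(CPM + 1) difference was 3.20 in GFP-negative cells, on 512 reads against 6, and -0.51 in GFP-positive cells, on 36 reads against 67, where the wider interval of the log2 difference, -1.03 to 0.03, included 0. The fractions lay 3.71 apart. With 1 library per condition, whether the fractions differ in their response was not tested.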

How the results depend on the processing

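No paired analysis was possible because each condition has 1 library and the labels carry no replicate numbers; for the same reason no library could be left out. The 29 log2 differences of members that were not 0 kept their direction under all 5 scalings, which could not turn those with 0 reads in one library. The 7 members called higher with RA in GFP-negative cells became 4 with a pseudocount of 5 CPM and 3 among genes with at least 10 CPM. The 6 called higher in GFP-negative against GFP-positive RA cells became 4 with that pseudocount and 3 with that filter. CLDN18, GIF and TFF1 were the members that reached 10 CPM, and these 3 were called in both comparisons. By the counting interval 6 and 7 members were called in these comparisons. For RA against CTR, 18642 genes were tested in GFP-negative and 17465 in GFP-positive cells, or 11606 and 11186 with at least 10 CPM. Between the fractions 18111 were tested with RA and 18786 in CTR, or 11850 and 11806 with that filter. Over all genes, the number called higher with RA in GFP-negative cells was 1620, and it was 466 with a pseudocount of 5 CPM, 574 among genes with at least 10 CPM and 707 by the counting interval. The number called lower there was 1418, and it was 2145 with a pseudocount of 0.25 CPM, 241 with 5 CPM and 369 among genes with at least 10 CPM. In GFP-positive cells 889 were higher and 371 lower, against 398 and 115 with 5 CPM, 463 and 187 with the 10 CPM filter, and 785 lower with 0.25 CPM. Between the RA fractions 2546 were higher and 1847 lower in GFP-negative cells, against 1387 and 981 with 5 CPM and 1474 and 1182 with the filter. Between the CTR fractions 3191 were higher and 2646 lower, against 1551 and 1158 with 5 CPM, 1567 and 1406 with the filter, and 1408 lower by the counting interval. Scaling by library size alone moved the median difference of all genes by -0.13 for RA against CTR in GFP-negative cells. In the CTR GFP-negative library a level below 0.639 CPM cannot be told from 0, which concerns MUC6.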
